A study of Mus musculus with 6 samples.

Results

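The nuclear genes for the subunits of the mitochondrial respiratory chain were followed in livers of mice given acetaminophen, with and without the gene Optn. They were taken from the deposited table as the protein-coding entries whose symbol starts with Ndufa, Ndufb, Ndufc, Ndufs or Ndufv and a number (complex I), is Sdha, Sdhb, Sdhc or Sdhd (complex II), starts with Uqcr (complex III), starts with Cox, a number from Cox4 to Cox8 and a letter from a to c (complex IV), or starts with Atp5 (complex V). This gave 84 of 55385 entries: 38 for complex I, 4 for complex II, 8 for complex III, 16 for complex IV and 18 for complex V. Another 13 entries had a matching symbol but were labelled as pseudogenes and were left out. Of these, 10 had counts, so reads may have been divided between a subunit gene and its pseudogene copies, and the levels of genes such as Ndufb4, Atp5l and Atp5pb are uncertain to that extent.

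Liver RNA came from 6 C57BL/6 mice, all 6 weeks old, with 2 individual animals in each of 3 groups. Optn knockout mice (replicates 4 and 5) and wild-type mice (replicates 1 and 4) were injected into the abdominal cavity with acetaminophen at 500 mg per kg. Wild-type controls (replicates 3 and 6) were injected with phosphate-buffered saline (PBS, 200 µL), and all livers were taken 6 h after the injection. No knockout mice given PBS were analysed here, so the knockout can be set against untreated liver only with genotype and drug changed together. The labels do not say how the Optn allele was made or in which cells it is lost. The product of Optn, optineurin, helps autophagy to clear damaged mitochondria, and acetaminophen at high dose injures hepatocytes through a reactive metabolite that binds mitochondrial proteins.

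The respiratory chain passes electrons from NADH (through complex I) and succinate (through complex II) to ubiquinone, on to cytochrome c (through complex III) and to oxygen (through complex IV). Complexes I, III and IV pump protons, and complex V, the ATP synthase, uses the resulting gradient to make ATP. Most subunits are nuclear-encoded and imported into the organelle, while a small core is encoded by mitochondrial DNA, so both genomes supply complexes I, III, IV and V. Transcription of the nuclear genes is known to depend on NRF1, GABP and the estrogen-related receptors, with PGC-1 proteins as coactivators. Hepatocytes are rich in mitochondria and are the main cells of the liver by mass.

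Total counts per library ran from 59143418 to 77292216. Optn was at 0.316 and 0.457 FPKM (fragments scaled to gene length and library size) in treated knockout livers, at 9.17 and 9.19 in treated wild-type livers and at 20.95 and 18.73 in PBS livers, so that the libraries labelled knockout were the lowest. The 8 hepatocyte markers (among them Alb and Apoa1) had counts in every library and summed to 97859 to 139651 CPM (counts scaled to library size). Skeletal muscle markers summed to 68.1 and 79.4 CPM in treated wild-type replicates 1 and 4 and 104 in PBS replicate 3, and to at most 1.01 in the other 3 libraries. Those 3 held the intestinal transcripts Clca1 and Zg16, which were at 0 in the libraries with muscle traces. The 12 intestinal markers summed to 76.5 and 87.1 CPM in treated knockout livers, 41.1 and 38.1 in treated wild-type livers and 61.0 and 80.0 in PBS livers. Among them Fabp2 did not follow this split. It was at 24.04 to 27.49 CPM in the treated libraries, 50.25 in PBS replicate 3 and 38.49 in PBS replicate 6. Each treated group lay within 1 of these library sets and only the PBS group was divided, so knockout and library set cannot be told apart between the treated groups. The 8 neuron markers summed to 124 CPM in treated wild-type replicate 4 and to 5.47 to 13.8 elsewhere. Blood cell markers also moved with treatment: 8 neutrophil markers summed to 70.2 to 192 CPM in the treated libraries and to 2.50 and 6.34 in the PBS libraries, where 3 and 1 of them were at 0. The 6 red cell markers summed to 8459.7, 8927, 9383 and 3962 CPM in the treated libraries and to 699.8 and 1110.1 in the PBS libraries. The part of these traces in the results below was not tested, and in whole liver, fewer cells of a type and less RNA per cell cannot be told apart.

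The test was run on genes whose FPKM averaged 0.5 or more over the libraries, which were 78 of the subunit genes and 11677 genes in all. The median level was 48.4 FPKM for these subunit genes and 2.97 over all genes tested. Together the 84 genes took 0.878% and 0.919% of counts in treated knockout livers, 0.933% and 0.907% in treated wild-type livers and 1.08% and 1.06% in PBS livers. The summed FPKM was 4950 ± 162 in treated knockout livers, 5107 ± 183 in treated wild-type livers and 5955 ± 127 in PBS livers (mean ± SD, n = 2 each). The share was therefore lower in each of the 4 treated livers than in both PBS livers, and the treated groups overlapped each other.

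**Figure D1:**
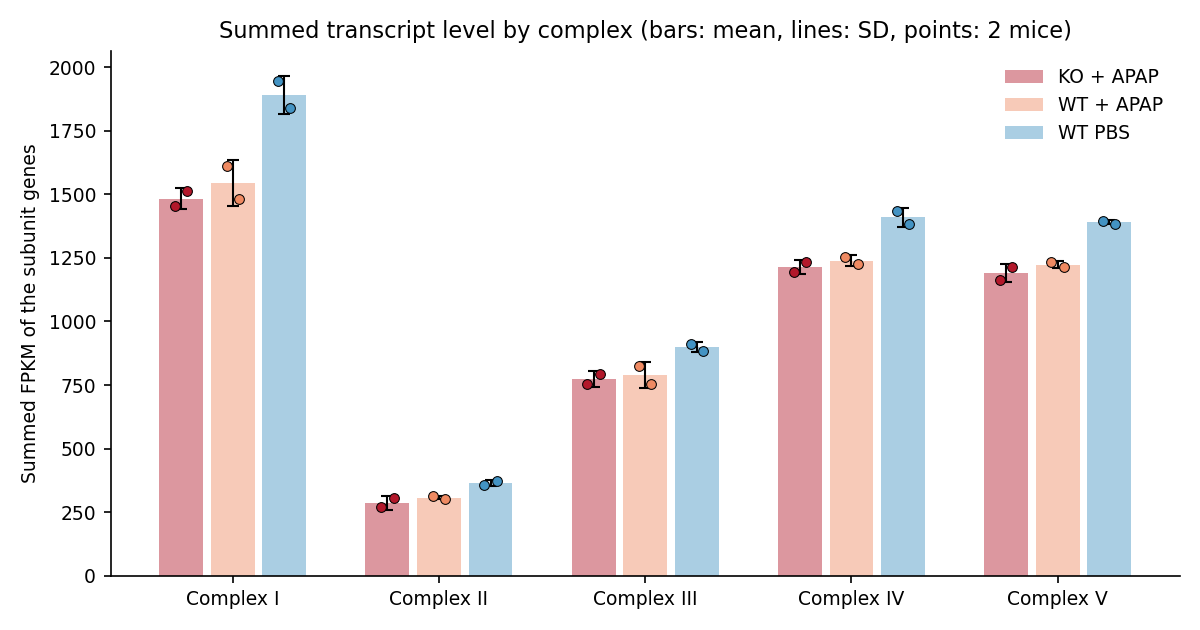
Summed FPKM of the subunit genes of each complex (vertical axis) in treated knockout, treated wild-type and PBS livers; bars are means, lines SD and points the 2 mice. For every complex the 4 treated livers lie below both PBS livers, and the treated groups overlap; for complex I the means are 1484, 1546 and 1891.

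The treated livers were lower in every complex, and the ratio to PBS livers was lowest for complexes I and II. Complex I summed to 1455 and 1512 FPKM in treated knockout livers, 1610.2 and 1482 in treated wild-type livers, and 1945 and 1838 in PBS livers. The ratio of means to PBS livers was 0.784 for treated knockout and 0.817 for treated wild type in complex I, and 0.788 and 0.842 in complex II. For complexes III, IV and V it was 0.861, 0.861 and 0.856 in treated knockout, and 0.879, 0.880 and 0.880 in treated wild type. These sums were not tested, and they are shares of a library: the 100 most abundant genes took 52.7 to 54.3% of counts in the treated libraries and 49.1% in both PBS libraries. Scaled by total counts, most genes were lower in the treated livers. The median log2 fold change over all genes tested was -0.19 for treated knockout over PBS and -0.19 for treated wild type over PBS. The part of the 100 most abundant genes in these medians was not tested. TMM scaling, which sets the bulk of genes level, brought those medians to -0.0018 and 0.027. The subunit genes lay at a median of -0.30 and -0.23 with total counts, a difference of -0.11 and -0.033 from all genes. Unless stated, the fold changes below are on the TMM scale.

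**Figure D2:**
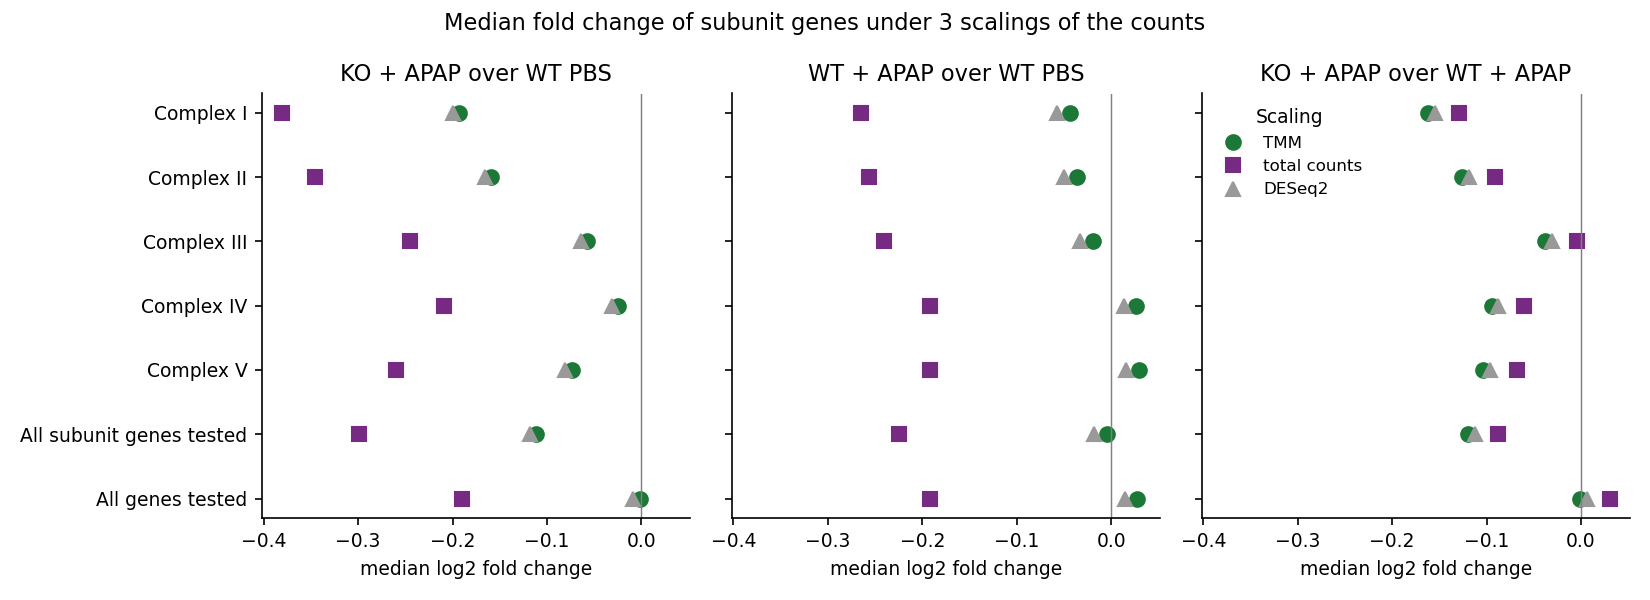
Median log2 fold change (horizontal axis) of the subunit genes by complex, of all 78 tested and of all 11677 genes tested, with the counts scaled by TMM (circles), by total counts (squares) or in DESeq2 (triangles), for treated knockout over PBS, treated wild type over PBS and treated knockout over treated wild type. Total counts move subunit genes and all genes together by about the same amount, and complex I lies lowest in each panel under TMM.

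Within complexes, levels per length ranged widely. In complex I, which oxidises NADH, the highest mean over the 6 libraries was that of Ndufb9, a membrane arm subunit, at 129 FPKM. The lowest was that of Ndufa4l2, a hypoxia-inducible paralog of Ndufa4 counted here by its symbol only, at 1.06. Complex II, the succinate dehydrogenase shared with the citric acid cycle, ran from 45.1 for Sdhc to 132 for Sdhd, both membrane anchors. Complex III, the cytochrome bc1 complex, ran from 53.3 for Uqcrc1, a core protein, to 144 for the small subunit Uqcr10. In complex IV, cytochrome c oxidase, the highest was Cox6a1, the ubiquitous form of subunit 6a, at 336 FPKM. Complex V ran from 14.1 for Atp5l, subunit g, to 247 for Atp5a1, the α subunit of the catalytic head.

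Of the 16 complex IV entries, 5 fell below the expression filter, and all of them are isoforms known mainly from other tissues. Cox6a2, the heart and muscle form of subunit 6a, had counts of 0 and 4 in treated knockout livers, 14 and 15 in treated wild-type livers, and 0 and 12 in PBS livers. Of the 3 libraries with muscle traces, both treated wild-type libraries had the highest counts and PBS replicate 3 had none, and the part of the traces in these counts was not tested. Cox8b, the muscle form of subunit 8, had at most 4 counts in any library, Cox8c at most 3, and Cox7b2 none, which allows up to 3 counts per library or 0.0507 CPM in the smallest (counting error only). Cox6b2, known from testis, had 56 and 12 counts in treated knockout livers, 22 and 19 in treated wild-type livers, and 14 and 27 in PBS livers. Cox7a1, the heart and muscle form of subunit 7a, was tested at 0.823 and 1.03 FPKM in treated knockout livers, 1.66 and 0.786 in treated wild-type livers, and 1.21 and 0.966 in PBS livers, groups that overlap. A second entry for Atp5o had no counts, and with it and the 5 isoforms left out, 78 of the 84 genes were tested.

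The first comparison asks what 6 h of acetaminophen did to the chain's transcripts in wild-type liver. After TMM scaling the subunit genes as a whole were level with other genes: 38 lay above and 40 below a log2 fold change of 0, with a median of -0.0049 against 0.027 over all genes. The median was 0.057 without treated wild-type replicate 4 and 0.042 without PBS replicate 3. None of the 78 passed the test (edgeR quasi-likelihood, Benjamini-Hochberg adjusted p under 0.05 over all genes), where 14.3% of all genes tested did, 8.36% higher and 5.92% lower. At an unadjusted p under 0.05 there were 3, all lower, where 15% of all genes tested were lower and 17.3% higher at that p. DESeq2 called 3, all lower, against 12.2% of all genes lower and 14.4% higher. Both counts lie under these shares. The 95% interval lay within a 2-fold change either way for 75 of the 78, and within a 1.5-fold change for 61, so larger changes of most subunit transcripts lay outside the intervals.

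The 3 genes with an unadjusted p under 0.05 were all of the Nduf series. Ndufa4, long listed with complex I and now known as a subunit of complex IV, was at 115 and 130.0 FPKM in treated knockout livers, 93.6 and 86.9 in treated wild-type livers, and 157 and 138 in PBS livers. The treated wild-type pair was the lowest of the 3 groups, with no overlap, and its log2 fold change over PBS was -0.50 ± 0.14 (SE, edgeR adjusted p = 0.069). Ndufs7, a core subunit that carries the iron-sulfur cluster nearest to ubiquinone, was at 23.3 and 21.7 FPKM in treated knockout livers and 20.9 and 21.2 in treated wild-type livers, against 32.4 and 32.8 in PBS livers. Its log2 fold change was -0.42 ± 0.12 (edgeR adjusted p = 0.0698). Both genes passed with total counts and with DESeq2, and neither passed with the library set as a term or with any library left out. Cox5b, a matrix-facing subunit of complex IV, had the smallest p of that complex, at 58.0 and 56.9 FPKM in treated wild-type livers against 78.3 and 79.9 in PBS livers (log2 fold change -0.25 ± 0.11, edgeR adjusted p = 0.183).

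In the remaining complexes several members lay above 0 after scaling. In complex III the smallest p were those of Uqcrq and Uqcrc1. Uqcrq, a small subunit, was at 143 and 115 FPKM in treated wild-type livers and 115 and 126 in PBS livers, which overlap on deposited FPKM. After TMM scaling its treated wild-type pair lay above the PBS pair, and the difference did not pass (0.31 ± 0.16, edgeR adjusted p = 0.255). In complex V the 5 genes of the F1 head, Atp5a1, Atp5b, Atp5c1, Atp5d and Atp5e, lay above 0 in log2 fold change, with a median of 0.074, and below 0 when scaled by total counts, with a median of -0.15. The 3 genes for the c subunit of the rotor ring, Atp5g1, Atp5g2 and Atp5g3, had a median of 0.072, with Atp5g2 the furthest from 0 (0.21 ± 0.13, edgeR adjusted p = 0.33). Cox7a1 had the largest fold change of complex IV, with an error larger than the value (0.38 ± 0.52). The 4 genes of complex II lay between -0.06 and -0.01, each smaller than its standard error.

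Treated knockout against PBS liver changes genotype and drug together. Here 60 of the 78 subunit genes lay below 0 and 18 above, with a median of -0.11 against -0.0018 over all genes, and complex I had the lowest median of the 5, at -0.19. The medians were -0.16 for complex II, -0.058 for complex III, -0.025 for complex IV and -0.074 for complex V. Only Ndufb3 passed, where 20.3% of all genes tested passed, 12.2% higher and 8.05% lower. At an unadjusted p under 0.05 there were 8 lower and none higher, where 16.4% of all genes tested were lower and 19.5% higher at that p, so the count of lower genes lies under the share of all genes. DESeq2 called 7 lower, against 14% of all genes lower and 17% higher. Of the 8, 7 belong to complex I, the complex with the most genes.

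Ndufb3 (ENSMUSG00000026032, chromosome 1, 58586384 to 58595964, plus strand, GRCm38), a small subunit of the membrane arm of complex I, was at 30.4 and 32.2 FPKM in treated knockout livers, 33.9 and 34.6 in treated wild-type livers and 49.9 and 50.5 in PBS livers. Both treated pairs lay below both PBS livers and the replicates were within a few FPKM of each other. In treated knockout over PBS livers it fell by 0.50 ± 0.11 on the log2 scale (edgeR adjusted p = 0.0298), to 0.706 of the PBS level (95% interval 0.583 to 0.856). In treated wild type over PBS livers its log2 fold change was -0.34 ± 0.11 (edgeR adjusted p = 0.0975). The call for the knockout did not hold with the library set as a term (adjusted p = 0.128), with the 4 libraries alone (0.0513), with no expression filter (0.0574), or without knockout replicate 4 (0.0895), knockout replicate 5 (0.0964), treated wild-type replicate 4 (0.0512), PBS replicate 3 (0.128) or PBS replicate 6 (0.102). Its log2 fold change stayed between -0.69 and -0.46 in all of these settings and the others run.

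The other 6 complex I genes with an unadjusted p under 0.05 were Ndufb4, Ndufa11, Ndufs8, Ndufs7, Ndufa8 and Ndufs1. Ndufb4, another membrane arm subunit, was at 12.1 and 13.8 FPKM in treated knockout livers, 14.2 and 14.8 in treated wild-type livers and 20.6 and 19.7 in PBS livers (knockout over PBS log2 fold change -0.46 ± 0.12, edgeR adjusted p = 0.0502). Ndufs8, a core subunit with iron-sulfur clusters, was at 37.2 and 30.2 FPKM in treated knockout livers, 44.8 and 45.6 in treated wild-type livers and 49.3 and 61.1 in PBS livers (-0.53 ± 0.17, edgeR adjusted p = 0.081). Ndufs1, the largest core subunit, was at 5.98 and 7.40 FPKM in treated knockout livers against 9.93 and 9.79 in PBS livers (-0.38 ± 0.14, edgeR adjusted p = 0.111). The 7 core subunits encoded in the nucleus had a median of -0.30, and the 31 other Nduf genes a median of -0.16. Of the 7 core genes, 5 lay below 0 and 2 above. Ndufv1, which binds FMN, lay above on the TMM scale (0.12 ± 0.17). On deposited FPKM it was at 28.0 and 36.0 in treated knockout livers and 29.6 and 37.0 in PBS livers, with a ratio of means of 0.961.

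**Figure D3:**
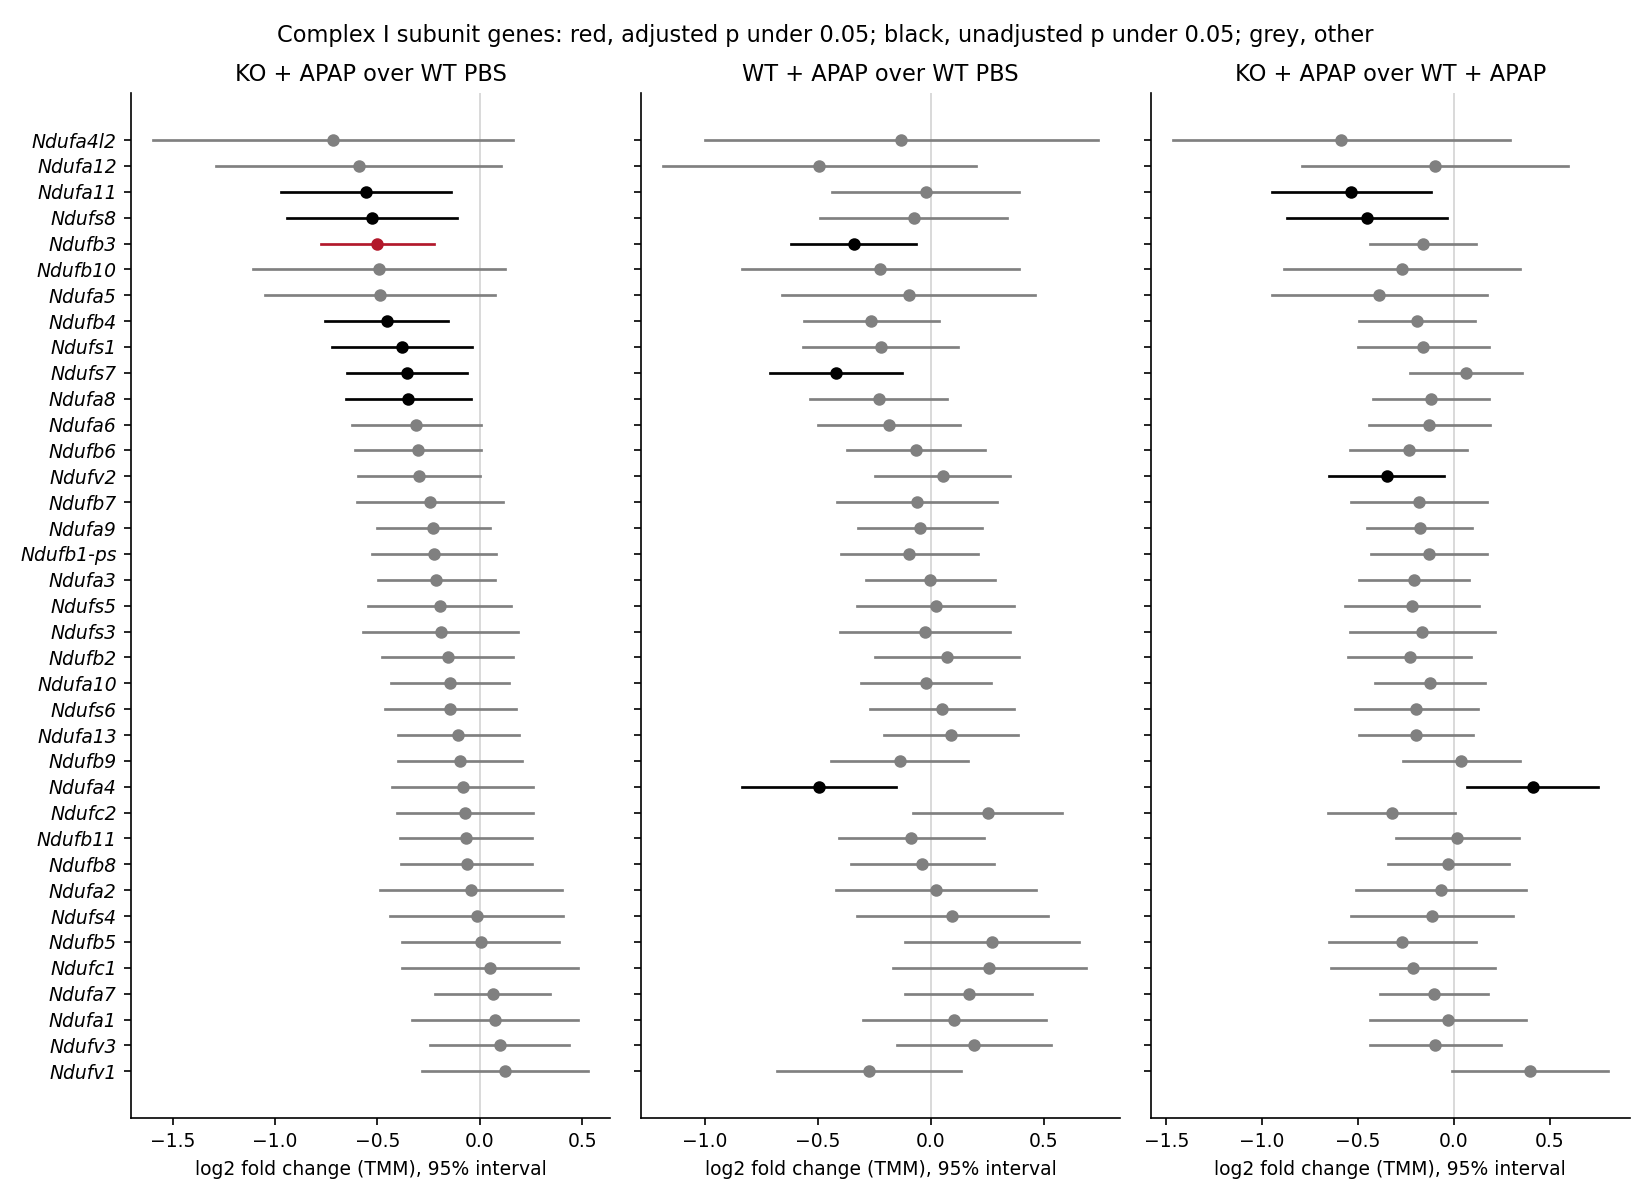
Log2 fold change with 95% interval (horizontal axis, TMM scaling) of 37 genes counted as complex I by symbol, sorted by their value in treated knockout over PBS. The panels show treated knockout over PBS, treated wild type over PBS and treated knockout over treated wild type. Red marks an adjusted p under 0.05 (Ndufb3 only), black an unadjusted p under 0.05 and grey the rest; 31 of 37 points lie below 0 in the first panel, 24 in the second and 32 in the third.

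Outside complex I, Atp5k and Cox7a2l had the smallest p of their complexes. Atp5k, subunit e of the ATP synthase, which takes part in its dimerisation, was at 65.3 and 75.3 FPKM in treated knockout livers, 80.4 and 72.3 in treated wild-type livers and 108 and 104 in PBS livers (knockout over PBS log2 fold change -0.41 ± 0.14, edgeR adjusted p = 0.0864). Cox7a2l, a paralog of Cox7a2, was the highest member in log2 fold change. It was at 63.9 and 42.7 FPKM in treated knockout livers, 44.4 and 39.3 in treated wild-type livers and 39.2 and 43.4 in PBS livers. On deposited FPKM the higher value came from knockout replicate 4 alone, since knockout replicate 5 lay within the range of the other groups. After TMM scaling knockout replicate 5 also lay above both PBS livers, though within the range of the treated wild-type livers. The difference from PBS (0.55 ± 0.23) did not pass (edgeR adjusted p = 0.141). In complexes II and III the smallest p were those of Sdhc and Uqcrb, with log2 fold changes of -0.21 ± 0.13 and -0.35 ± 0.21, neither past the threshold. Ndufa4l2 had the largest fold change of the genes counted as complex I by symbol, with a wide error (-0.72 ± 0.36). Its level was low, 0.774 and 0.680 FPKM in treated knockout livers and 1.48 and 1.25 in PBS livers. Atp5j, coupling factor 6 of the ATP synthase, came next to Atp5k, at 31.1 and 28.5 FPKM in treated knockout livers and 46.8 and 40.7 in PBS livers (-0.37 ± 0.18, edgeR adjusted p = 0.192).

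**Figure D4:**
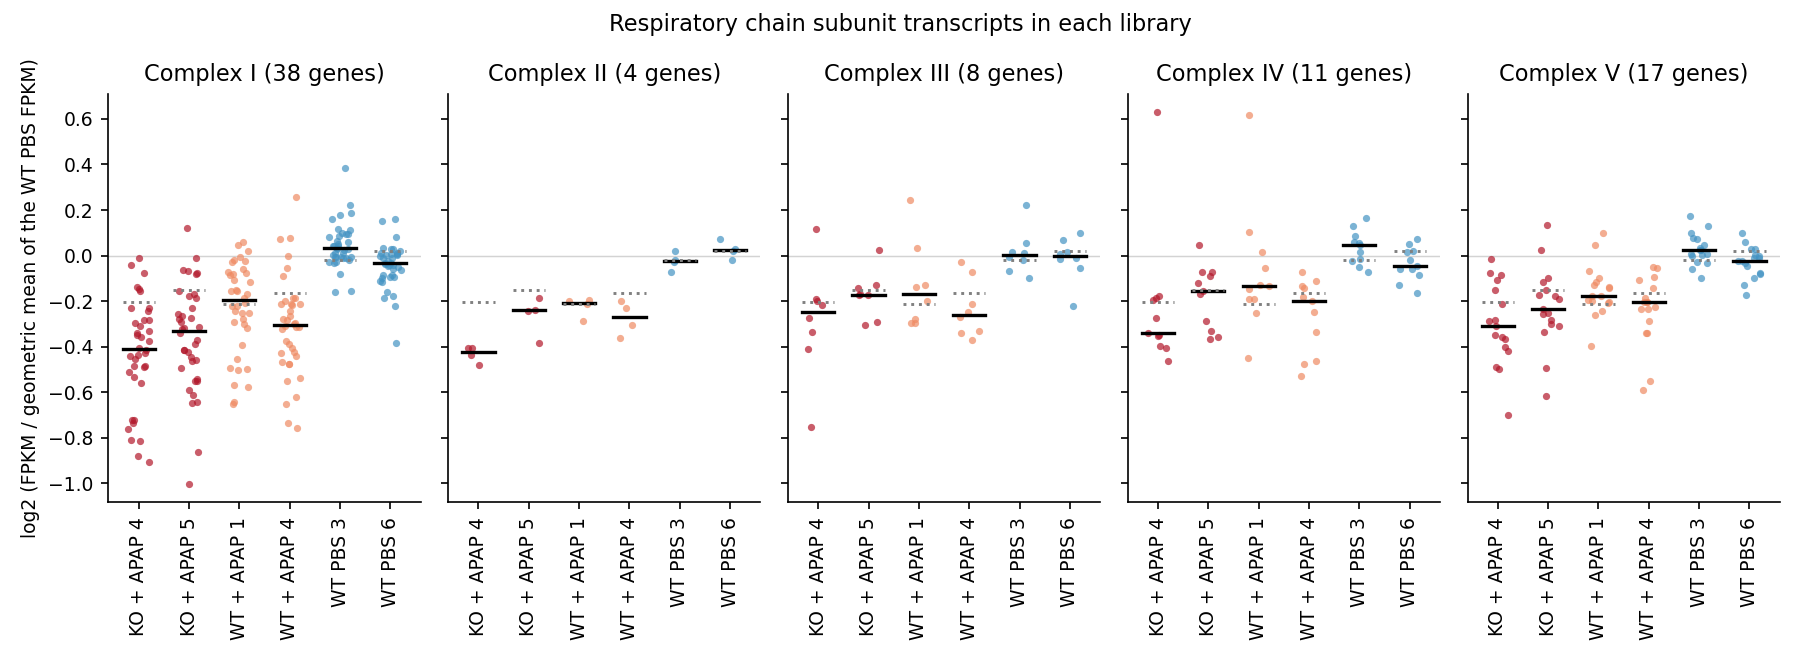
Log2 of the FPKM of each tested subunit gene over its geometric mean in the PBS livers (vertical axis), by library and complex; black lines are medians of the genes shown and dotted grey lines the median of 11468 tested genes with counts in all libraries. The treated libraries lie below the PBS libraries in each complex, as do the dotted lines, and in complex I the median is -0.41 and -0.33 in the knockout libraries and -0.20 and -0.30 in the treated wild-type libraries.

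On deposited FPKM, without rescaling, 60 of the 78 genes were lower in both treated wild-type than in both PBS livers (45.1% of all genes tested were) and 66 of 78 were lower in both treated knockout livers (44.5% were). None was higher in treated wild type, where 21.1% of all genes were, or in treated knockout, where 24.3% were. All 4 treated livers lay below both PBS livers for 57 of the 78 (37.1% of all genes). After TMM scaling these counts were 13 lower and 11 higher for treated wild type (30.1% and 32.7% of all genes) and 37 lower and 5 higher for treated knockout (32.7% and 33.7%). Complex I gave 23 of the 37 and 9 of the 13 lower genes. For treated wild type the shares of subunit genes thus lay below those of all genes in both directions after scaling.

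The knockout was compared with wild type within acetaminophen. None of the 78 passed, where 0.103% of all genes tested passed (12 genes, 0.0514% higher and 0.0514% lower), and 3 were lower and 1 higher at an unadjusted p under 0.05, where 3.85% of all genes were lower and 4.92% higher. DESeq2 called none of the subunit genes, against 1.03% of all genes lower and 1.4% higher. The values leaned one way without passing: 66 of 78 lay below 0, with a median of -0.12 against -0.00059 over all genes, and after TMM scaling 31 genes were lower in both knockout livers (18.9% of all genes were) and 3 were higher (20.8%). On deposited FPKM the counts were 29 lower (15.9%) and 5 higher (23.1%). Of the 31 after scaling, 22 belong to complex I. The median was -0.20 without treated wild-type replicate 4 and -0.047 without treated wild-type replicate 1, so that its size rested on which wild-type library was used. The hepatocyte markers lay lower in treated knockout livers as well: 7 of the 8 were below 0, with a median of -0.35, and none passed. Their sum was 97859 and 129479 CPM in treated knockout livers and 139651 and 137017 in treated wild-type livers, and Alb alone was at 66860 and 95110 CPM against 99360 and 97550. Their part in the lean of the subunit genes was not tested. The 95% interval lay within a 2-fold change for 76 of the 78.

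The 4 genes with an unadjusted p under 0.05 were Ndufa11, Ndufa4, Ndufv2 and Ndufs8. Ndufa11, a membrane arm subunit, was at 13.3 and 14.8 FPKM in treated knockout livers, 20.7 and 19.0 in treated wild-type livers and 25.9 and 20.8 in PBS livers. Its log2 fold change in treated knockout over treated wild type was -0.53 ± 0.17 (edgeR adjusted p = 0.509), and the knockout pair lay below the 4 other livers. Ndufv2, which carries an iron-sulfur cluster beside Ndufv1, was at 29.4 and 30.8 FPKM in treated knockout livers and 39.0 and 36.1 in treated wild-type livers (-0.35 ± 0.12, edgeR adjusted p = 0.522). Ndufa4, given above, was the exception in direction, higher in knockout than in treated wild type by 0.41 ± 0.14 (edgeR adjusted p = 0.517).

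In the other complexes no subunit gene had an unadjusted p under 0.05 between the treated groups. The smallest p were those of Sdhc (-0.15 ± 0.13) and Sdhd (-0.13 ± 0.14) in complex II, Uqcrh (-0.20 ± 0.14) and Uqcrb (-0.23 ± 0.21) in complex III, Cox7a2 (-0.21 ± 0.14) and Cox7a2l (0.32 ± 0.23) in complex IV, and Atp5h (-0.22 ± 0.14) and Atp5g3 (-0.19 ± 0.12) in complex V. Sdhd was at 108 and 128 FPKM in treated knockout livers and 131 and 122 in treated wild-type livers, and Atp5g3 at 81.2 and 86.9 against 96.7 and 91.0. The first pair of groups overlaps and the second does not.

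Promoters were examined because most members lay below 0 in both comparisons of treated knockout livers, though the split was near even in treated wild type over PBS. A further reason was that NRF1, GABP and the estrogen-related receptors bind known motifs in promoters. Of 83 member symbols, 82 matched RefSeq genes by symbol and 1 by a synonym, and 69 genes had 1 or more of 74 promoters of 300 bases (250 before and 50 after the start, RefSeq, GRCm38.p6). The NRF1 motif (GCGC, any base, T, GCGC), searched like the others on both strands, was found in 18 of the 74 (24.3%), in 17 genes, against 4.6% of all 32851 promoters of that length. AAGATGGC, bound by YY1, was found in 13.5% against 2.75%, CCGGAAGT, bound by ETS factors such as GABP, in 6.76% against 3.89%, and TNAAGGTCA, bound by estrogen-related receptors, in 3 (4.05%) against 1.28%. TATAAA was found in 12.2% against 13.6%, and no matches of different motifs overlapped in these promoters. The member promoters were also richer in CpG, with a median of 19 sites and 57.5% GC against 7 and 52.7%, and the part of this in the NRF1 share was not tested.

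Sequences around 6 matches are shown because they come from members of 3 complexes and lie outside any annotated exon. Each reads 5′ to 3′ along the gene, with the match in capitals, and the first 5 are NRF1 matches on one strand or the other, while that of Atp5g3 is to the estrogen-related receptor motif, read on the other strand.
Ndufa11, chr17:56717687-56717726, plus strand, match from 60 bases before the start: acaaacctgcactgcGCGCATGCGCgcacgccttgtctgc
Ndufb4, chr16:37654535-37654574, minus strand, from 191 bases before: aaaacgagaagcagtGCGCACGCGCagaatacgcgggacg
Ndufs5, chr4:123718260-123718299, minus strand, from 98 bases before: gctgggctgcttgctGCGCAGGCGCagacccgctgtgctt
Cox6a1, chr5:115349051-115349090, minus strand, from 117 bases before: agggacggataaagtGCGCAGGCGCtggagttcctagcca
Atp5h, chr11:115420036-115420075, minus strand, from 141 bases before: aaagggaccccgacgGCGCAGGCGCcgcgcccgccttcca
Atp5g3, chr2:73911355-73911393, minus strand, from 52 bases before: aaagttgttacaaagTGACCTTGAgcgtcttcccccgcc
Ndufa11 and Ndufb4 were among the lower genes in treated knockout over PBS livers, while Cox6a1 was at 322 and 326 FPKM in treated knockout livers and 379 and 349.8 in PBS livers, with a log2 fold change of 0.01 ± 0.12. The promoter of Ndufb3 held none of the 5 motifs in its 300 bases.

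Some genes of the chain fall outside the symbol rule. Cyc1 (cytochrome c1 of complex III), Cycs (cytochrome c), Cox4i1 (the main subunit 4 of complex IV) and Ndufab1 (the acyl carrier protein in complex I) were tested, and none passed in any comparison. Ndufab1 was at 3.94 and 3.94 FPKM in treated knockout livers, 4.53 and 4.03 in treated wild-type livers and 6.87 and 5.80 in PBS livers (knockout over PBS log2 fold change -0.51 ± 0.15, edgeR adjusted p = 0.068).

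Assembly factors build the complexes but are not part of them. Of 49 tested, 11 fell and 2 rose in treated knockout over PBS livers, with a median of -0.38, and 9 fell and 2 rose in treated wild type over PBS livers, with a median of -0.35. The background is 8.05% lower and 12.2% higher for the knockout, and 5.92% and 8.36% for wild type. Coa3, which acts early in complex IV assembly, was at 21.3 and 22.2 FPKM in treated knockout livers, 22.5 and 23.5 in treated wild-type livers and 42.9 and 43.2 in PBS livers. It fell by 0.81 ± 0.12 in the knockout (edgeR adjusted p = 0.00835) and by 0.70 ± 0.11 in wild type (edgeR adjusted p = 0.0169) on the log2 scale. Coa6, a complex IV copper-delivery factor, fell to 6.05 and 7.23 FPKM in treated knockout livers and 8.85 and 11.8 in treated wild-type livers, against 20.8 and 21.9 in PBS livers.

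Tmem126b, which helps to assemble the membrane arm of complex I, fell in treated knockout over PBS livers by 1.17 ± 0.20 and in treated wild type over PBS livers by 0.97 ± 0.19. Cox19, a copper-handling factor for complex IV, rose instead, by 0.72 ± 0.14 and 0.82 ± 0.14. The counts depended on the libraries: with the library set as a term, 3 assembly factors were lower in the knockout and 0 in wild type, and 0 were higher in either, Cox19 included. Without 1 library they ranged from 2 to 9 in the knockout, and in wild type they were 4 without knockout replicate 4, 5 without knockout replicate 5 and 0 without any of the other 4 libraries. Coa3 and Coa6 were called in the knockout in all 15 settings including the one reported. None of the 49 passed between treated knockout and treated wild type, where Coa6 had the smallest p (log2 fold change -0.66 ± 0.20, edgeR adjusted p = 0.501).

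**Figure D5:**
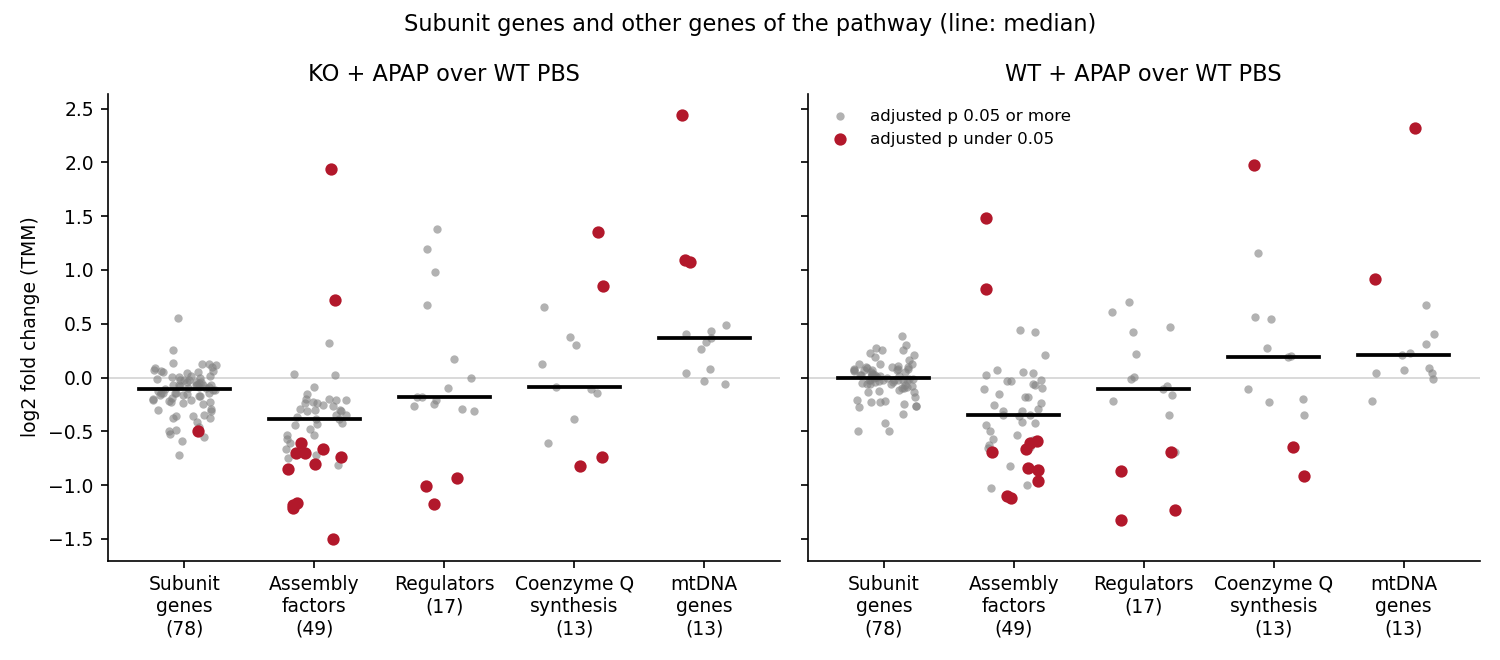
Log2 fold change (vertical axis, TMM scaling) of the tested subunit genes, assembly factors, regulators of mitochondrial biogenesis, coenzyme Q synthesis genes and mitochondrially encoded genes, for treated knockout over PBS and treated wild type over PBS; red points have an adjusted p under 0.05 and lines are medians. Assembly factors have medians of -0.38 and -0.35, against -0.11 and -0.0049 for the subunit genes.

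Among 17 regulators tested, Esrra and Twnk fell in both treated groups against PBS livers. Esrra, the estrogen-related receptor α, was at 3.58 and 4.10 FPKM in treated knockout livers, 2.67 and 3.03 in treated wild-type livers and 8.03 and 8.55 in PBS livers. It fell by 0.93 ± 0.13 in the knockout (edgeR adjusted p = 0.0084) and by 1.33 ± 0.13 in wild type (edgeR adjusted p = 0.0048) on the log2 scale. Twnk, the helicase of mitochondrial DNA replication, fell by 1.18 ± 0.15 and 1.23 ± 0.15, and Tfb1m, a methyltransferase of mitochondrial ribosomal RNA, by 1.01 ± 0.21 and 0.87 ± 0.21. The regulators called lower were these 3 in the knockout, and these and Gabpb2, a GABP subunit, in wild type (8.05% and 5.92% of all genes were lower). As reported, 0 were higher in either, although 3 in the knockout and 1 in wild type were higher at an unadjusted p under 0.05. In the knockout DESeq2 called 3 higher (Gabpb1, Ppargc1b and Pprc1), and edgeR called 1 with no filter and 2 with the 4 libraries alone or without either treated wild-type replicate, while in wild type 0 were higher in every setting run. A term for the library set left 2 lower in each. With a mean FPKM of 5 or more required, neither Esrra nor Twnk is tested and 0 were called.

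The chain's remaining subunits are encoded by mitochondrial DNA. Of 13 protein-coding genes, 3 rose in treated knockout over PBS livers, with a median of 0.36, and 2 rose in treated wild type over PBS livers, with a median of 0.21 (12.2% and 8.36% of all genes rose). With total counts the medians were 0.18 and -0.01, with 9 and 6 of the 13 above 0, and 3 and 1 were called higher. A term for the library set left 1 called in each. mt-Atp6, subunit a of the ATP synthase, was at 6373 and 8648 FPKM in treated knockout livers, 7508 and 5900.5 in treated wild-type livers and 1589 and 1533 in PBS livers, and rose by 2.44 ± 0.22 and 2.32 ± 0.22 on the log2 scale. Its neighbour mt-Atp8, transcribed in the same RNA, was at 4095 and 5893 FPKM in treated knockout livers, 3907 and 3659 in treated wild-type livers and 4238 and 4109 in PBS livers. On deposited FPKM the knockout pair overlaps the PBS pair and the treated wild-type pair lies below it. The TMM factors were 0.948 and 0.981 in treated knockout, 0.922 and 0.966 in treated wild-type and 1.09 and 1.11 in PBS libraries. Divided by these factors, the knockout pair lies above the PBS pair and the treated wild-type pair overlaps it. Neither difference passed. These genes overlap on the genome, the counter's use of strand is not given in the sources used here, and poly(A) selection does not capture mitochondrial RNA evenly, so these values are uncertain.

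Of 13 genes of coenzyme Q synthesis, which makes the carrier between complexes I, II and III, 2 rose and 2 fell in treated knockout over PBS livers (12.2% of all genes rose and 8.05% fell), and 1 rose and 2 fell in treated wild type over PBS livers (8.36% and 5.92%). Coq8b, an atypical kinase, was at 6.98 and 7.52 FPKM in treated knockout livers, 10.98 and 10.98 in treated wild-type livers and 2.99 and 3.45 in PBS livers. It rose by 1.35 ± 0.13 in the knockout (edgeR adjusted p = 0.0028) and by 1.98 ± 0.13 in wild type (edgeR adjusted p = 0.0017) on the log2 scale. The methyltransferases Coq3 and Coq5 fell in both comparisons, and neither call held once the library set was a term, where 0 of the list were lower. Between treated knockout and treated wild type, Coq8b had a log2 fold change of -0.63 ± 0.12 and Coq8a of 0.65 ± 0.17, neither past the threshold (edgeR adjusted p = 0.312 and 0.455), although DESeq2 called both.

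The median absolute log2 difference between replicates was 0.124 in treated knockout, 0.108 in treated wild type and 0.0900 in PBS livers for the subunit genes, against 0.247, 0.240 and 0.210 for all genes tested. Their median biological coefficient of variation was 0.144, against 0.205 over all genes. The part of their higher level in this was not tested. The subunit gene models were also shorter, at a median implied length of 1773 bases against 3994.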

How the data were processed

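Poly(A) RNA of 6 livers was sequenced as paired ends. The authors deposited 1 table with an integer count and an FPKM value for each gene and library, per the file headers. The submitters' processing notes name Bowtie 0.12.2 and mm8, but the coordinates are those of GRCm38. Which counter made the counts, with which strand setting, is not given here. Genes averaging 0.5 FPKM or more were tested with edgeR 4.0.16 (quasi-likelihood test, TMM, 3 group means, 3 residual degrees of freedom), with Benjamini-Hochberg adjustment over all 11677 genes and a threshold of 0.05. DESeq2 1.42.0, limma 3.58.1 on log2(FPKM + 0.5) and other alternatives were tried in R 4.3.3; the counts of other gene lists under them were added after the data were seen. Replicates differed by more than sampling noise (mean chi-square per gene 85.2 to 204). Data were simulated with known changes in genes drawn from all 11677 tested. The test recovered 20 to 30% of 2-fold and 90 to 97% of 8-fold changes with at most 5 false calls. P-values set each group difference against the spread between these mice within groups, which in the PBS group also holds the difference between library sets. The members, gene lists and library sets were chosen with earlier results of these data known. Genes named are those past the threshold, the 2 smallest p and the largest fold change per complex and comparison, and the highest and lowest level per complex. The tissue-restricted isoforms that fit the symbol rule, and up to 4 genes of smallest p per other list, are also named. Others (Ndufs8, Ndufv2, Ndufa11, Ndufa8, Ndufs1, Ndufv1, Gabpb1, Ppargc1b, mt-Atp8) were named after their values were seen. A result for 1 gene is not reported here.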

Additional observations from a re-analysis of the deposited data

How the results depend on the processing

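No paired analysis was run, because the libraries come from individual animals and the labels do not pair animals between groups. With total counts, DESeq2, limma on log2(FPKM + 0.5), limma on log2(FPKM + 0.1) and a mean FPKM of at least 5, the subunit genes called lower were 12, 7, 14, 14 and 1 in treated knockout over PBS, and 5, 3, 6, 5 and 1 in treated wild type over PBS. Of all 11677 genes, total counts called 1756 lower in the knockout and 1470 in wild type, and DESeq2 called 14% and 12.2% lower. In wild type, limma on log2(FPKM + 0.5) called 1496 of them lower. The counts of subunit genes thus rise with those of all genes and are not particular to the subunits. In treated knockout over PBS, 0 were called with no filter, with the library set as a term or with the 4 libraries alone, and 0 to 1 with any library left out. In treated wild type over PBS, 0 to 0 were called with any library left out. None was called higher, and none was called between the treated groups, in any setting. All genes called in treated knockout over PBS were 2366, and 3619 with DESeq2, 1035 with a mean FPKM of at least 5, 960 with the set term and 750 to 2201 with 1 library left out. In treated wild type over PBS they were 1667, and 3102, 819, 812 and 494 to 1263 in the same settings. Between the treated groups they were 12, and 283 with DESeq2, 27 with limma on log2(FPKM + 0.5), 37 with no filter, 3 with the set term, 30 with the 4 libraries alone and 1 to 28 with 1 library left out. The cause was not tested. Scaling by total counts turned the split of calls from 1426 higher and 940 lower to 1134 and 1756 in treated knockout over PBS, and from 976 and 691 to 721 and 1470 in treated wild type over PBS. With 2 mice a group, 2-fold changes were often missed in simulation. That simulation drew from all genes tested, whose median biological coefficient of variation was 0.205 against 0.144 for the subunit genes. It therefore does not give the recovery for subunit genes.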
